A study of Drosophila melanogaster with 16 samples.

Results

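The RNA that neuroblasts and other neural progenitors of the Drosophila larval brain had made during a pulse of labelling was compared after 3 h of chase with the same kind of RNA at the end of the pulse. The comparison used 4 of the 16 libraries of the series: replicates 1 and 2 of the 3 h chase, and replicates 1 and 2 of the pulse, chosen by their labels. All 4 came from brains of the third larval instar (L3) and a single genotype, in which insc-Gal4 drives UAS-CD:UPRT in neural progenitors. In the 3 h chase group, larvae were fed 1 mM 5-ethynylcytosine (5EC) from 72 to 84 h after hatching and then moved to food with 10 mM uridine for 3 h. In the pulse group, RNA was taken at the end of the 12 h of 5EC feeding. The study names no wild-type, unlabelled or Gal4-free library for this experiment, so the background of RNA that binds the beads without a tag has no measured value here. The central nervous systems were dissected crudely, and the study's methods describe both independent feedings and repeated purifications at each time point. The labels number the libraries of a time point without saying which of these they are, so p-values measure only the spread between these samples, which may be technical.

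Neuroblasts are the stem cells of the insect nervous system. They divide asymmetrically, renew themselves and give off smaller progenitors whose daughters become neurons and glia, and a sequence of temporal factors sets which neurons are born when. CD:UPRT is a fusion of cytosine deaminase and uracil phosphoribosyltransferase: cells that express it turn 5EC into a tagged uridine nucleotide and build it into new RNA, which can be biotinylated and pulled down on streptavidin beads. Unlabelled uridine in the chase competes with the tag, so RNA that is degraded quickly is lost from the tagged pool relative to RNA that persists. Because each library is scaled to its own total, a fold change after the chase is relative to the other RNAs of the library and is not a rate of decay. In such bulk RNA, fewer cells of a type and less RNA per cell cannot be told apart.

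The 3 h chase libraries held 25807630 and 31713720 estimated counts, and the pulse libraries held 18740829 and 12541294. At least 10 counts were present for 6284 and 10303 genes after the chase, against 7052 and 8910 genes at the pulse, so replicate 2 showed more genes than replicate 1 at both times. Across the 9333 genes tested, the Spearman correlation of levels between replicates was 0.702 for the chase and 0.656 for the pulse, while between the times it was 0.691 for the libraries numbered 1 and 0.842 for those numbered 2. Where a gene reached 100 counts in a replicate, the other replicate had under 1 count for 31.0% of the genes after the chase and 21.0% at the pulse. Mitochondrial RNA took 11.6% and 10.01% of the counts after the chase and 12.8% and 11.4% at the pulse. Features annotated as nuclear rRNA, most of them pseudogenes, took 15.6% and 9.50% of the counts after the chase and 13.2% and 6.96% at the pulse.

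Of the neuroblast markers, dpn, wor, mira and insc were sparse, whereas pros and brat, given further below, were higher in every library. The bHLH repressor dpn, which maintains self-renewal, had 0 and 52 estimated counts after the chase and 0 and 3 at the pulse. The Snail-family factor wor had 0.0408 and 5.44 CPM (the share of a library's counts, per 1000000 counts and scaled between libraries by TMM) after the chase and 13.6 and 0 CPM at the pulse. The cargo adaptor mira, which carries fate determinants to the basal side of the dividing cell, had 0 and 22.3 CPM after the chase and 0 and 19.8 CPM at the pulse. The driver gene insc itself, an adaptor of the apical polarity complex, had 0.367 and 21.5 CPM after the chase and 39.3 and 16.0 CPM at the pulse. In replicate 1, then, dpn and mira were at 0 at both times, and the cell type rests on the labels. RNA of other tissues was present in bulk: 13 muscle genes summed to 41289 and 55907 CPM after the chase and 88326 and 53705 CPM at the pulse, and 12 fat body genes to 98710 and 39437 CPM after the chase and 31583 and 45217 CPM at the pulse. Of 11 salivary gland genes 3 had enough counts to be tested, 2 of them with both chase libraries above both pulse libraries (13% of all genes did so) and 0 the other way round, with a median log2 fold change of 0.27. The list summed to 181 and 264 CPM after the chase and 150 and 188 CPM at the pulse. The new glue gene ng1 had 56.3 and 96.6 CPM after the chase and 69.5 and 79.9 CPM at the pulse, and ng3 had 68.8 and 113 CPM after the chase and 20.2 and 60.4 CPM at the pulse. The Sgs glue genes were at or near 0, apart from 243 counts of Sgs4 in pulse replicate 1 and 41 counts of Sgs8 in pulse replicate 2.

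Which RNAs had changed their share of the tagged pool after 3 h was tested on gene sums. By the quasi-likelihood test of edgeR, with p-values adjusted by Benjamini-Hochberg over all genes, 0 of 9333 genes were lower after the chase and 0 were higher at an adjusted p under 0.05. At an unadjusted p under 0.05, 5 genes (0.0536%) were lower and 39 (0.418%) were higher. DESeq2 also called 0 genes (48 lower and 207 higher at an unadjusted p under 0.05), and limma voom called 0 lower and 1 higher, ATPsynC (36 lower and 44 higher unadjusted). Leaving out either pulse replicate also gave calls, but these rest on the 1 pulse library left, whereas leaving out either chase library gave none. Without pulse replicate 2, RpLP2 had a log2 fold change of 15.4, with 0 counts in pulse replicate 1 and 4298 in the library left out. Without pulse replicate 1, CG46385 had a log2 fold change of 15.9. Its counts were 15894 and 0 after the chase and 15968 and 0 at the pulse. Both chase libraries lay below both pulse libraries for 1149 genes (12.3%) and above them for 1210 genes (13%). No gene named in what follows passed the adjusted threshold, so each is given by its values.

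The spread between replicates set how small a change could be seen. The 95% interval of the log2 fold change had a median half-width of 5.06 over all genes tested and of 1.81 over the 3085 genes with a mean of at least 1000 counts. Among these 3085 genes the log2 fold change had a median of 0.01, with quartiles at -0.36 and 0.41, and the fitted value was more than 2-fold lower for 121 genes and more than 2-fold higher for 227. For 351 of them (11.4%) the whole interval lay above a 2-fold fall relative to the other RNAs, while for 0 of them did it lie within 2-fold in both directions. The narrowest interval belonged to verm, which encodes a chitin-binding protein, with 257 and 244 CPM after the chase and 238 and 220 CPM at the pulse. Its log2 fold change was 0.13 (95% interval -1.05 to 1.31). Also among the 8 narrowest was ref(2)P, the fly p62 protein that binds ubiquitinated cargo for autophagy, with 300 and 287 CPM after the chase and 177 and 166 CPM at the pulse. Its 2 chase libraries lay above both pulse libraries with a log2 fold change of 0.77 (95% interval -0.41 to 1.96), so that a change of this size did not pass even where replicates lay close together.

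**Figure D1:**
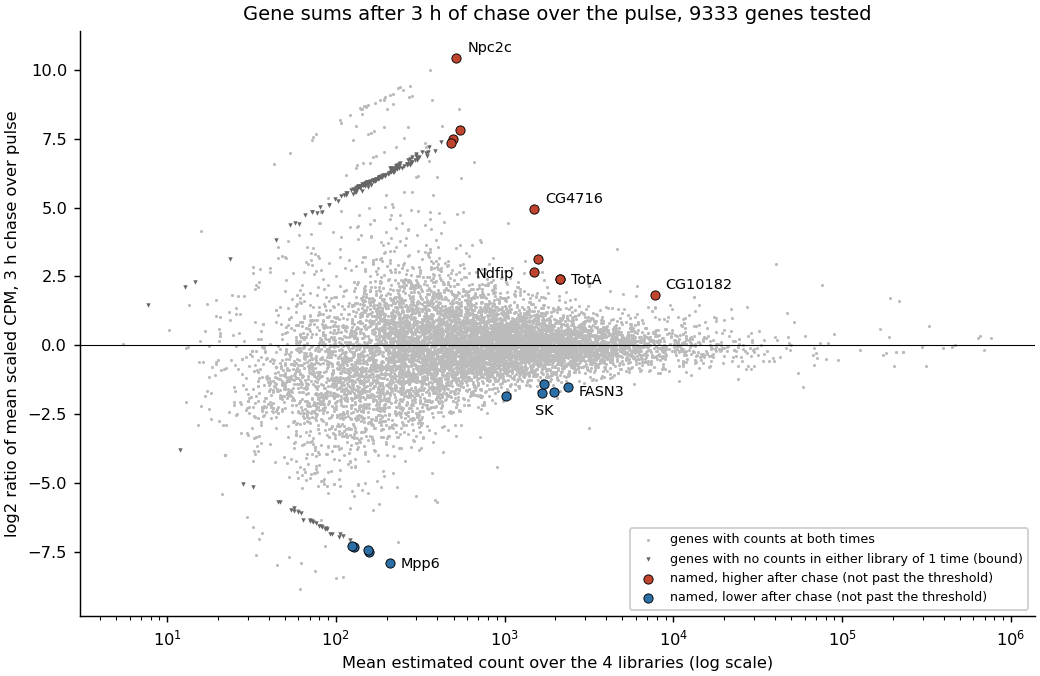
Each point is a gene: the horizontal axis is the mean estimated count over the 4 libraries (log scale) and the vertical axis the log2 ratio of mean scaled CPM, 3 h chase over pulse, with triangles at the bound that 3 counts per library set where a time point had no counts. The cloud of 9333 genes narrows with the mean count, and the 20 named genes (red higher and blue lower after the chase, some labelled) lie at its edges, none past the adjusted threshold.

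The gene with the smallest p in the higher direction was TotA (Turandot A), a secreted stress-response factor made mainly in the fat body, on chromosome 3R from 20871036 to 20871700 (plus strand). It had 167 and 110 CPM after the chase against 26.3 and 25.8 CPM at the pulse. The log2 fold change was 2.41 (SE 0.66, 95% interval 0.82 to 4.01, unadjusted p = 0.00975), a ratio of mean levels of 5.32. CG13323 had much the same pattern, with 173 and 107 CPM after the chase against 23.9 and 28.5 CPM at the pulse and a log2 fold change of 2.42 (SE 0.67). In both genes the 2 pulse libraries lay close together and far below both chase libraries. Scaled over all 8 neuroblast libraries, TotA had 18.0 and 17.6 CPM at the pulse, 116 and 75.7 CPM after 3 h, 198 and 123 CPM after 6 h and 794 and 184 CPM after 12 h of chase. Every chase library of TotA was therefore above both pulse libraries, and the same held for CG13323. It did not hold for all of the 10 higher genes. On the same scale CG14205 had 25.2 and 8.76 CPM after 6 h and 0 CPM in both libraries of 12 h. CG6479 had 0.065 and 0 CPM after 6 h and 0 CPM in both libraries of 12 h. The neuroblast library of 12 h of chase, replicate 1, had 65.5% of its counts in 10 features.

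CG14205 had 79.3 and 122 CPM after the chase against 15.1 and 7.73 CPM at the pulse, a ratio of mean levels of 8.79. CG4716 had 82.1 and 120 CPM after the chase against 0.459 and 6.02 CPM at the pulse, a ratio of 31.1. It passed the adjusted threshold when pulse replicate 2 was left out, at a log2 fold change of 7.76 and an adjusted p of 0.000125 (edgeR), and in no other alternative. Ndfip, a membrane adaptor for Nedd4-family ubiquitin ligases, had 142 and 61.5 CPM after the chase against 13.9 and 18.4 CPM at the pulse. Its ratio of mean levels was 6.27 (log2 fold change 2.65, SE 0.86, unadjusted p = 0.0203). CG10182 had the most counts of the group, with 613 and 359 CPM after the chase against 172 and 101 CPM at the pulse, a ratio of 3.56. These 4 genes had counts in every library, and no overlap between the times was a condition of their choice.

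In the rest of the 10 higher genes the pulse libraries were nearly empty. CG3434 had 43.9 and 27.4 CPM after the chase and no counts in either pulse library. A floor of 3 counts per library, which covers counting error only, put it 181-fold higher. Its fitted log2 fold change, which does not use this floor, was 12.6 (95% interval 3.88 to 21.4). CG6479 had 21.2 and 43.4 CPM after the chase and likewise no counts at the pulse. By the same floor it was 164-fold higher. Its fitted log2 fold change was 12.5 (95% interval 3.15 to 21.8). Npc2c, of the sterol-binding Niemann-Pick type C2 family, had 65.0 and 14.8 CPM after the chase and 0.0574 and 0 CPM at the pulse, the value in pulse replicate 1 being 1 count. RPA3, a subunit of the replication protein A complex that coats single-stranded DNA, had 51.9 and 27.3 CPM after the chase against 1 and 4 counts at the pulse. Over all genes tested, 143 had no counts in both pulse libraries and 33 had none in both chase libraries, and 1269 genes were at 0 in chase replicate 1 alone.

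**Figure D2:**
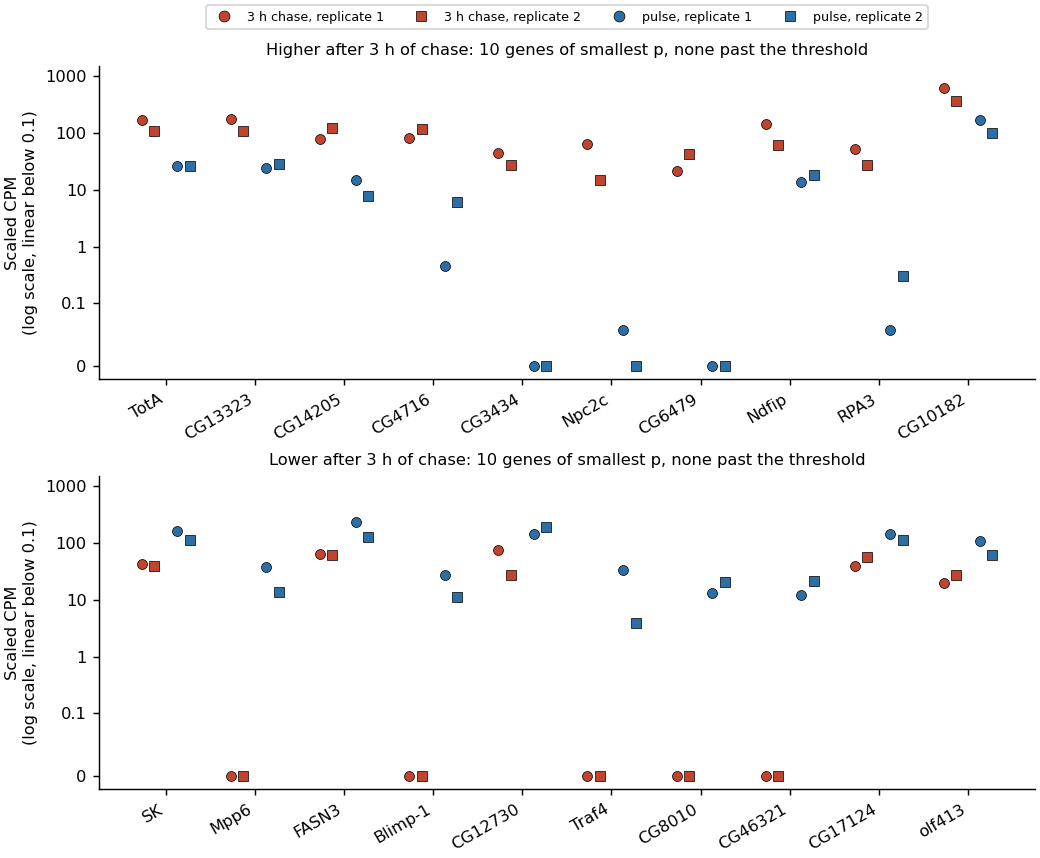
Scaled CPM in each library for the 10 genes of smallest p in each direction (log scale, linear below 0.1), 3 h chase in red to the left of the pulse in blue, circles for replicate 1 and squares for replicate 2. All were chosen to have no overlap between times. TotA and SK have counts in all 4 libraries, while CG3434 has 0 at the pulse and Mpp6 has 0 after the chase.

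Among the genes lower after the chase, the smallest p belonged to SK, a small-conductance calcium-activated potassium channel that shapes neuronal firing, on chromosome X from 5340236 to 5405138 (plus strand). It had 42.2 and 39.8 CPM after the chase against 161 and 114 CPM at the pulse. Its log2 fold change was -1.75 (SE 0.61, 95% interval -3.24 to -0.26, unadjusted p = 0.0284), a pulse level 3.35 times that of the chase. FASN3, a fatty acid synthase, had 64.1 and 62.0 CPM after the chase against 238 and 127 CPM at the pulse, with a log2 fold change of -1.53 (SE 0.60). In both genes the chase libraries were the tighter pair. On the scale of all 8 libraries SK had 110 and 78.0 CPM at the pulse, 29.3 and 27.4 CPM after 3 h, 18.9 and 3.94 CPM after 6 h and 0.490 and 27.1 CPM after 12 h of chase. Replicate 2 of 12 h was therefore at the level of the 3 h libraries.

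CG12730 had 75.8 and 27.6 CPM after the chase against 146 and 189 CPM at the pulse, and CG17124 had 39.5 and 57.3 CPM against 142 and 113 CPM. The gene olf413 had 20.05 and 27.3 CPM after the chase against 109 and 60.8 CPM at the pulse, a log2 fold change of -1.84 (SE 0.83). These 3 genes had counts in all 4 libraries. The other 5 lower genes had no counts in either chase library. Mpp6, whose human counterpart works with the nuclear RNA exosome, had 37.6 and 13.4 CPM at the pulse. A floor of 3 counts per library, which covers counting error only, put it 238-fold lower after the chase. Its fitted log2 fold change, which does not use this floor, was -12.1 (95% interval -22.4 to -1.87). Blimp-1, an ecdysone-induced transcriptional repressor that times ftz-f1 expression, had 27.8 and 11.0 CPM at the pulse. By the same floor it was 181-fold lower after the chase. Its fitted log2 fold change was -11.7 (interval -23.4 to -0.065). Traf4, an adaptor in TNF receptor and JNK signalling, had 32.8 and 3.94 CPM at the pulse. It was 172-fold lower by this floor, with a fitted log2 fold change of -11.7 (interval -23.97 to 0.65). CG8010 and CG46321 were 159-fold and 157-fold lower by this floor. Their fitted log2 fold changes were -11.55 and -11.53 (intervals -23.83 to 0.73 and -23.89 to 0.83). The intervals of Traf4, CG8010 and CG46321 thus included no change. On the scale of all 8 libraries Blimp-1 had 12.7 and 12.5 CPM after 6 h of chase and no counts after 12 h, whereas Traf4 had no counts in any of the 6 chase libraries.

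Neuroblast transcription factors did not move together. Of 17 genes on this list, 12 were tested, with 0 past the threshold in either direction. Without overlap lay 2 above (16.7%, against 13% of all genes) and 0 below (against 12.3%). The median log2 fold change was 0.19 against -0.08 over all genes tested. The homeodomain factor pros, which enters the nucleus of the daughter cell to end self-renewal, had the most counts, with 205 and 68.0 CPM after the chase against 204 and 43.0 CPM at the pulse. The replicates of pros differed more than the times. The proneural factor ase, which marks type I neuroblasts, had 23.2 and 10.2 CPM after the chase against 0 and 7.58 CPM at the pulse, and the SoxB factor D (Dichaete) had 34.6 and 5.93 CPM against 0 and 2.23 CPM. These were the 2 members without overlap. The pair-rule gene run was not tested, since its only counts were 98 in chase replicate 2.

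The asymmetric division and polarity list had all 17 members tested, with 0 past the threshold and a median log2 fold change of -0.28. Without overlap lay 1 above and 1 below (5.88% each, against 13% and 12.3% of all genes). Galphai, the G protein subunit that links Insc and Pins to spindle orientation, had 105 and 14.5 CPM after the chase against 12.2 and 11.1 CPM at the pulse. The cortical scaffold scrib had 184 and 188 CPM after the chase against 244 and 209 CPM at the pulse. The tumour suppressor l(2)gl, which had the most counts of the list, had 998 and 542 CPM after the chase against 817 and 469 CPM at the pulse. Another brain tumour suppressor, brat, a translational repressor segregated into the daughter cell, had 517 and 194 CPM after the chase against 780 and 219 CPM at the pulse. In l(2)gl and brat, as in pros, replicate 1 was above replicate 2 at both times.

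The temporal factors showed the same order of replicates. Of 11 genes 10 were tested, with 0 past the threshold and a median log2 fold change of -0.07. Without overlap lay 0 members, against 13% above and 12.3% below among all genes. The RNA-binding protein Syp, which acts late in the larval neuroblast and opposes Imp, had 1583 and 276 CPM after the chase against 1472 and 257 CPM at the pulse. Its early counterpart Imp had 1018 and 383 CPM after the chase against 1364 and 523 CPM at the pulse. The zinc-finger factor chinmo, which marks early-born neurons, had 1052 and 588 CPM after the chase against 1287 and 497 CPM at the pulse. Log2 fold changes were 0.10 (SE 1.11) for Syp, -0.43 (SE 0.79) for Imp and -0.12 (SE 0.73) for chinmo. All 11 genes summed to 5105 and 1734 CPM after the chase and 5814 and 1865 CPM at the pulse, so that replicate 1 held far more of this list than replicate 2 at both times.

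Cell cycle genes went both ways. Of 24 genes 23 were tested, with 0 past the threshold, 5 above and 5 below without overlap (21.7% each, against 13% above and 12.3% below among all genes) and a median log2 fold change of -0.23. The mitotic cyclin CycB had 21.8 and 11.1 CPM after the chase against 41.1 and 37.4 CPM at the pulse, and CycE, the cyclin of S phase entry, had 0 and 10.8 CPM against 23.2 and 18.1 CPM. Higher after the chase were Dp, the partner of E2F, with 87.0 and 75.1 CPM against 36.9 and 48.1 CPM, and fzr, an activator of the anaphase-promoting complex, with 74.8 and 46.4 CPM against 15.0 and 39.4 CPM. The G1 cyclin CycD had 9.11 and 22.1 CPM after the chase against 27.1 and 12.3 CPM at the pulse, and its times overlapped. Of 25 DNA replication genes 19 were tested, with 0 past the threshold. Without overlap lay 4 above (21.1%, against 13% of all genes) and 3 below (15.8%, against 12.3%). The median log2 fold change of this list was -0.14. Of the 3 below, RnrL, the large subunit of ribonucleotide reductase, had 34.3 and 19.7 CPM after the chase against 73.5 and 43.7 CPM at the pulse. RnrS, with the most counts of the list, had 0.0408 and 56.3 CPM after the chase against 106 and 47.3 CPM at the pulse, and its times overlapped.

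The replication-dependent histones, whose mRNAs lack a poly(A) tail and are degraded at the end of S phase, had the lowest median of the lists outside the marker lists. Of 111 gene copies 76 were tested, with 0 past the threshold and a median log2 fold change of -0.77. Without overlap lay 24 below (31.6%, against 12.3% of all genes) and 6 above (7.89%, against 13%). The copies are near-identical and reads are divided among them, so they do not count as separate genes: 6 copies of His1 share the same 15.2 and 18.1 CPM after the chase and 74.4 and 47.9 CPM at the pulse, and 9 copies of His4 make up another block of equal values. Summed per family, His1 had 228 and 423 CPM after the chase against 600 and 473 CPM at the pulse. His2A had 58.6 and 216 CPM after the chase against 202 and 203 CPM at the pulse, and His2B had 31.0 and 93.0 CPM against 190 and 79.9 CPM. His1 was the family whose chase libraries lay below both pulse libraries, and the other families overlapped. All 111 copies together had 484 and 829 CPM after the chase against 1281 and 861 CPM at the pulse.

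Notch signalling keeps neuroblasts and their progeny apart, and its list had a median log2 fold change of -0.61 over 13 tested of 20 genes, with 0 past the threshold, 3 below (23.1%, against 12.3% of all genes) and 1 above (7.69%, against 13%) without overlap. The co-activator mam had 76.1 and 120 CPM after the chase against 168 and 132 CPM at the pulse, and the ubiquitin ligase neur, which activates Notch ligands, had 3.88 and 20.8 CPM against 28.8 and 49.0 CPM. H (Hairless), the repressor partner of Su(H), lay the other way, with 76.9 and 64.2 CPM after the chase against 60.4 and 17.8 CPM at the pulse. The receptor N had 66.5 and 79.9 CPM after the chase against 124 and 57.9 CPM at the pulse. Of the E(spl) target genes, most had too few counts to be tested.

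Immediate early and hormone-response genes encode mRNAs known for rapid turnover. All 11 immediate early genes were tested, with 0 past the threshold, 2 below (18.2%, against 12.3% of all genes) and 1 above (9.09%, against 13%) without overlap and a median log2 fold change of -0.40. The zinc-finger gene cbt (cabut) had 141 and 91.7 CPM after the chase against 344 and 180 CPM at the pulse, a log2 fold change of -1.17 (SE 0.59, unadjusted p = 0.0943). The Egr-family gene sr had 46.9 and 35.7 CPM after the chase against 96.4 and 62.6 CPM at the pulse. The JNK phosphatase puc had 147 and 92.7 CPM after the chase against 442 and 85.9 CPM at the pulse, so only pulse replicate 1 was high. The Fos homologue kay, with the most counts of the list, had 504 and 373 CPM after the chase against 615 and 239 CPM at the pulse. Of the 21 ecdysone-response genes, all tested, 0 passed the threshold, and 3 lay below (14.3%, against 12.3% of all genes) and 0 above without overlap. The receptor subunit usp had 17.9 and 12.98 CPM after the chase against 62.6 and 44.3 CPM at the pulse, and Eip75B, an early nuclear receptor, had 289 and 255 CPM against 387 and 375 CPM.

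**Figure D3:**
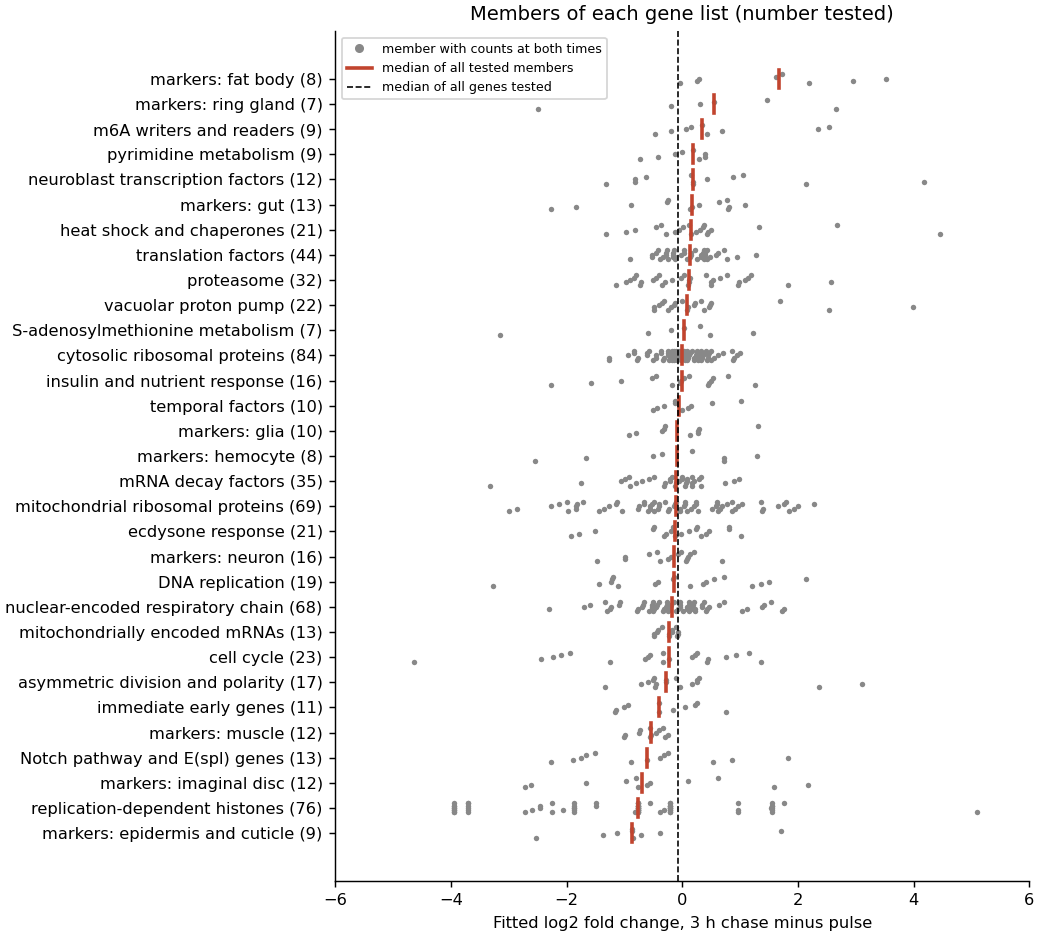
Fitted log2 fold change (3 h chase minus pulse) of each tested member with counts at both times (grey points) and the median of all tested members (red bars) for the gene lists, with the median of all genes tested, -0.08, as a dashed line. Medians run between -0.87 for cuticle markers and 1.67 for fat body markers, and members of most lists lie on both sides of the dashed line.

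Housekeeping groups stayed near the median of all genes. The cytosolic ribosomal protein genes, 84 tested of 93, had 0 past the threshold, 6 above and 3 below without overlap and a median log2 fold change of 0.00, which took the other sign with DESeq2 size factors or library totals. Their sum was 11293 and 24561 CPM after the chase and 10433 and 25210 CPM at the pulse, so replicate 2 held far more than replicate 1 at both times. The translation factors, 44 tested of 53, had 7 above and 3 below without overlap and a median of 0.13. Of these eEF1alpha1, which brings aminoacyl-tRNA to the ribosome, had 4281 and 4651 CPM after the chase against 2640 and 4046 CPM at the pulse. The proteasome list, 32 tested of 48, had 5 above and 3 below with a median of 0.11, and its lid subunit gene Rpn6 had 148 and 146 CPM after the chase against 35.5 and 104 CPM at the pulse. The nuclear-encoded respiratory chain, 68 tested of 87, had 6 above and 10 below with a median of -0.17. Its member ND-B18, of complex I, had 6.41 and 19.98 CPM after the chase against 81.0 and 49.0 CPM at the pulse. The 13 mRNAs encoded in mitochondria, all tested, had a median of -0.23 and 0 without overlap. The genes of the mitochondrial ribosome, 69 tested of 73, had 8 above and 8 below with a median of -0.12, and those of the vacuolar proton pump, 22 tested of 33, had 3 above and 1 below with a median of 0.09. None of these lists had a member past the threshold. Among all genes 13% lay above and 12.3% below. The shares were 7.14% and 3.57% of the cytosolic ribosomal protein genes, 15.9% and 6.82% of the translation factors and 15.6% and 9.38% of the proteasome genes. They were 8.82% and 14.7% of the respiratory chain, 11.6% each way of the mitochondrial ribosome and 13.6% and 4.55% of the vacuolar proton pump.

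Chaperone genes, 21 tested of 23, had 0 past the threshold and a median log2 fold change of 0.16. Without overlap lay 2 above (9.52%, against 13% of all genes) and 0 below (against 12.3%). Hsc70-3, the Hsp70 of the endoplasmic reticulum, had 1036 and 922 CPM after the chase against 742 and 709 CPM at the pulse. Hsp70Aa had 3.18 and 124 CPM after the chase against 2.75 and 3.05 CPM at the pulse, and since the Hsp70 copies are near-identical its counts may be divided with the others. The mRNA decay factors were all tested (35 of 35), with 0 past the threshold and a median of -0.10. Without overlap lay 2 above (5.71%) and 3 below (8.57%). The decapping enhancer Edc3 had 48.3 and 97.3 CPM after the chase against 389 and 99.1 CPM at the pulse. Its groups did not overlap, but 1 library, pulse replicate 1, held nearly all of the difference.

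Methylation of internal adenosines to m6A is a mark placed by the Mettl3 and Mettl14 complex and read by YTH proteins, and the study lists 867 target genes from other brain samples. Of these 852 were in the table and 814 were tested. Both chase libraries lay below both pulse libraries for 114 targets (14.0%) and above for 75 (9.21%), against 12.1% below and 13.3% above among the 8519 other genes. The median log2 fold change was -0.17 (quartiles -0.62 and 0.33) for targets and -0.07 for the other genes, and 58.4% of targets had a negative value against 52.9% of the others. Targets had higher counts, with a median mean count of 1177 against 483 for the others. Among genes with a mean of at least 1000 counts, 14.4% of 450 targets lay below and 6.89% above, with a median of -0.13, and 9.34% of 2635 other genes lay below and 14.3% above, with a median of 0.04. No target passed the threshold, and the difference between targets and other genes was not tested. In sum the 852 targets had 92588 and 71567 CPM after the chase against 116950 and 68724 CPM at the pulse, so that both libraries numbered 1 were above both numbered 2 and pulse replicate 1 was the highest.

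The targets of smallest p in the lower direction were SK, Blimp-1 and Traf4, given above. In the higher direction they were magu, bin3 and Orai. The secreted BMP regulator magu had 211 and 76.2 CPM after the chase against 49.4 and 46.7 CPM at the pulse, a log2 fold change of 1.58 (SE 0.71). The 7SK-capping methyltransferase bin3 had 138 and 106 CPM after the chase against 52.9 and 44.6 CPM at the pulse, a log2 fold change of 1.32 (SE 0.62). Orai, the pore of the store-operated calcium channel, had 111 and 47.9 CPM after the chase against 15.3 and 26.2 CPM at the pulse, a log2 fold change of 1.94 (SE 0.94). In these 3 genes every chase library was above every pulse library. Of the 9 m6A writers and readers, all tested, 0 passed the threshold. The 2 without overlap were both above (22.2%, against 13% of all genes). Mettl3, the catalytic subunit, had 33.8 and 9.72 CPM after the chase against 0.229 and 7.28 CPM at the pulse, and vir, a scaffold of the writer complex, had 37.6 and 51.8 CPM against 28.8 and 26.6 CPM. The reader Ythdf had 85.4 and 45.5 CPM after the chase against 160 and 21.5 CPM at the pulse, and its times overlapped.

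Neuron markers summed to more than the neuroblast transcription factors. The latter had 586 and 283 CPM after the chase and 483 and 255 CPM at the pulse. In both libraries numbered 1 the temporal factors summed to more than the neuron markers, and the lists differ in number and kind of gene. The 16 neuron markers, all tested, had 0 past the threshold and a median log2 fold change of -0.14. Without overlap lay 1 above (6.25%, against 13% of all genes) and 3 below (18.75%, against 12.3%). The vesicular acetylcholine transporter VAChT had 107 and 57.3 CPM after the chase against 180 and 147 CPM at the pulse, and Rab3, a GTPase of synaptic vesicles, had 17.8 and 65.2 CPM against 139 and 91.5 CPM. The vesicular glutamate transporter VGlut lay the other way, with 177 and 129 CPM after the chase against 79.3 and 110 CPM at the pulse. The pan-neuronal RNA-binding protein elav had 372 and 195 CPM after the chase against 614 and 233 CPM at the pulse. In sum the list had 3445 and 2168 CPM after the chase against 4110 and 2393 CPM at the pulse. Imaginal disc markers, 12 tested of 14, had 0 past the threshold and a median of -0.69. Without overlap lay 5 below (41.7%, against 12.3% of all genes) and 1 above (8.33%, against 13%). Their sum was 1031 and 623 CPM after the chase against 1758 and 831 CPM at the pulse. Of these the Hox gene Antp, which is also used in the ventral nerve cord, had 106 and 78.7 CPM after the chase against 226 and 139 CPM at the pulse.

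For markers of other tissues, the sum of 1 library often stood apart from the rest. Of 12 fat body genes 8 were tested, with 0 past the threshold and a median log2 fold change of 1.67. Without overlap lay 2 above (25%, against 13% of all genes) and 0 below (against 12.3%). The storage protein subunit gene Lsp1gamma had 22767 and 5260 CPM after the chase against 4822 and 4317 CPM at the pulse, and Lsp1beta had 18707 and 6009 CPM against 3658 and 3792 CPM. Fbp2 had 682 and 27.7 CPM after the chase against 37.7 and 24.4 CPM at the pulse (log2 fold change 3.51, unadjusted p = 0.0411), and Fbp1 had no counts in any of the 4 libraries. Chase replicate 1 was therefore the library with most larval serum protein RNA. The list's sum in chase replicate 2, 39437 CPM, lay between the pulse values of 31583 and 45217 CPM. Of that sum apolpp held 24736 CPM, against 19649 and 33914 CPM at the pulse. Lsp1gamma, Lsp1beta and TotA, a gene known from the fat body, were above both pulse libraries in both chase libraries. Fbp2 was so in chase replicate 1 alone. The part of fat body RNA in the higher genes was not tested. Muscle markers, 12 tested of 13, had 0 past the threshold, 2 below (16.7%) and 0 above and a median of -0.54. Pulse replicate 1 had the highest sum, but members differed. On the scale of all 8 libraries Mhc had 3006 and 9932 CPM after 3 h and 6454 and 8823 CPM at the pulse. Gut markers summed to 1606 and 2567 CPM after the chase against 670 and 3352 CPM at the pulse, so the lowest and highest libraries were both from the pulse.

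The smaller marker lists gave no member past the threshold. Among all genes 13% lay above and 12.3% below without overlap. Glial markers, 10 tested of 12, had 1 above (10%) and 0 below and a median log2 fold change of -0.09. Hemocyte markers, all 8 tested, had 1 above and 1 below (12.5% each) and a median of -0.09. Gli, a septate junction protein of the glial sheath, had 57.4 and 89.1 CPM after the chase against 32.5 and 26.6 CPM at the pulse. Ring gland markers, 7 tested of 10, had 1 above and 1 below (14.3% each). Their median was 0.55, or 1.46 without the filter on low counts. Of these spok, a cytochrome P450 of ecdysone synthesis, had 133 and 45.2 CPM after the chase against 73.2 and 48.9 CPM at the pulse. Cuticle markers, 9 tested of 11, had 0 without overlap and a median of -0.87, with 267 and 342 CPM of Lcp4, a larval cuticle protein, after the chase against 784 and 322 CPM at the pulse.

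**Figure D4:**
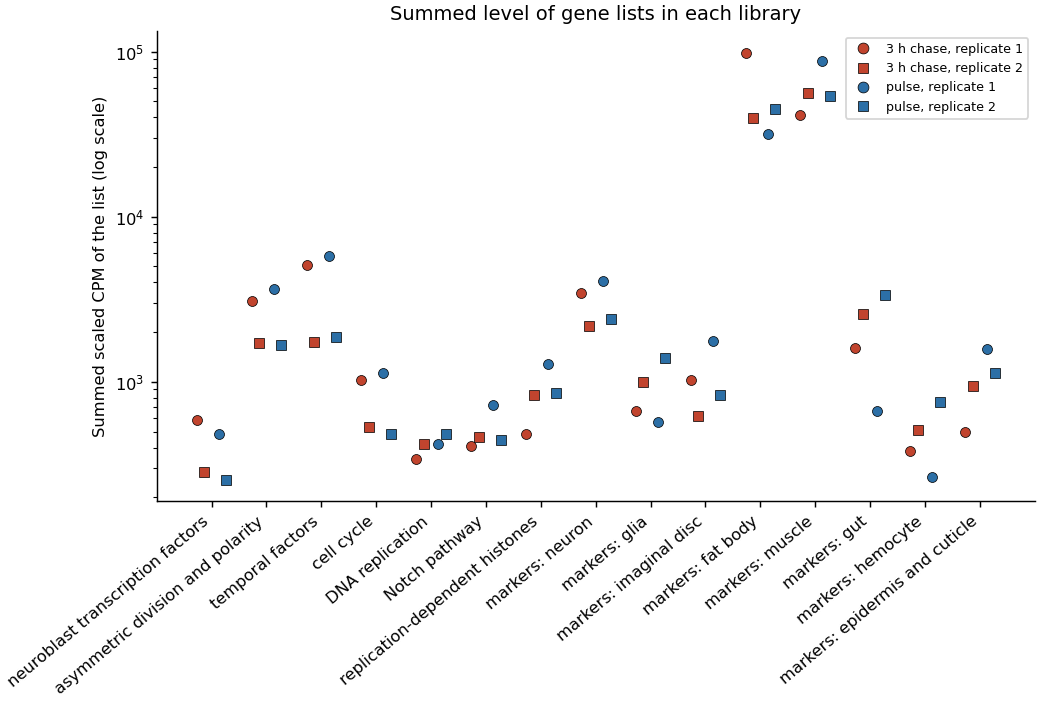
Summed scaled CPM of the members in the table of 15 gene lists in each library (log scale), 3 h chase in red to the left of the pulse in blue, circles for replicate 1 and squares for replicate 2. Temporal factors are high in both replicate 1 libraries, fat body markers are highest in chase replicate 1, and muscle markers are highest in pulse replicate 1.

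The remaining lists gave no member past the threshold either. Of 9 genes of pyrimidine metabolism, all tested, 1 lay above without overlap (11.1%, against 13% of all genes) and 0 below (against 12.3%). This was dnk, the deoxyribonucleoside kinase of the nucleoside salvage route. It had 43.7 and 7.06 CPM after the chase and no counts at the pulse (unadjusted p = 0.0366). The uracil-degrading gene su(r), a dihydropyrimidine dehydrogenase, had 31.4 and 249 CPM after the chase against 37.0 and 178 CPM at the pulse. Of the insulin and nutrient genes, 16 tested of 17, 1 lay above (6.25%) and 2 below (12.5%) without overlap. The kinase gene mTor had 22.3 and 106 CPM after the chase against 113 and 153 CPM at the pulse. The translation repressor Thor (4E-BP) had 333 and 787 CPM against 469 and 341 CPM. In the S-adenosylmethionine list, all 7 tested, 0 lay above and 1 below (14.3%) without overlap. Its member Sam-S, the synthetase of the methyl donor, had 584 and 1191 CPM after the chase against 546 and 1491 CPM at the pulse. The median log2 fold changes of these lists were 0.19, 0.00 and 0.02, and the last 2 were below 0 with DESeq2 size factors or library totals. Every list median given here was the same to 2 decimals with genes at 0 in a time point set at the bound of 3 counts per library.

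Below the gene sums, individual transcripts were tested the same way. Of 13401 transcripts, 0 were lower and 0 higher after the chase at an adjusted p under 0.05 with edgeR, and 133 (0.992%) were lower and 201 (1.5%) higher unadjusted. Both chase libraries lay below both pulse libraries for 1590 transcripts (11.9%) and above for 1827 (13.6%). DESeq2 called 238 lower and 326 higher transcripts, and leaving out pulse replicate 2 gave 52 lower and 137 higher and leaving out pulse replicate 1 gave 23 lower and 52 higher. A change in the share of a gene's transcripts, tested in 2641 genes, was called for 0 genes, with 58 (2.2%) at an unadjusted p under 0.05. Where a transcript reached 100 counts in a replicate, the other replicate had under 1 count for 52.7% of the transcripts after the chase and 44.9% at the pulse.

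The dominant transcript of a gene often differed between replicates. Among 3580 genes with more than 1 transcript, a mean of at least 100 counts and at least 20 counts in each library, it differed between the chase replicates in 1612 genes (45.0%) and between the pulse replicates in 1487 (41.5%). Between times it differed in 1386 genes (38.7%) for replicate 1 and in 1367 (38.2%) for replicate 2. The dominant transcript was the same in all 4 libraries for 1251 genes (34.9%). It was shared by both libraries of each time and different between times for 125 genes (3.49%). The transcripts described next were picked after their values were seen, from those of smallest p.

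The clearest exchange of estimated counts was in l(2)efl, a small heat shock protein of the alpha-crystallin family, on chromosome 2R from 23684651 to 23685543 (minus strand). Transcript l(2)efl-RA had 6108 and 7352 estimated counts after the chase and 0 at the pulse, while l(2)efl-RC had 4.83 and 1.86 counts after the chase and 6685 and 1793 at the pulse. The gene sum had a log2 fold change of -0.12 (SE 0.64). The exons of RA, 738 bases, lie wholly within those of RC, which is longer by 3 bases. Nearly every read therefore fits both, and whether estimated counts can tell such transcripts apart was not tested. The same limit holds for Ciz1 and eIF3a below, where the shorter transcript also lies wholly within the longer. All 4 libraries of 6 and 12 h of chase had RA, with 1594 and 2936 counts at 6 h and 567 and 1366 at 12 h, and under 2 counts of RC.

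Ciz1, a zinc-finger gene on chromosome 3L from 9864639 to 9870674, showed the same form. Ciz1-RB had 2285 and 2203 counts after the chase and 0 at the pulse, and Ciz1-RA had 0.155 and 0.0482 counts after the chase and 1526 and 1048 at the pulse. RB lies within RA, which is longer by 22 bases, and the 6 h chase libraries were divided, with 1004 counts of RA in replicate 1 and 225 counts of RB in replicate 2. After 12 h RB had 513 and 156 counts and RA under 1 count. The gene sum of Ciz1 had a log2 fold change of -0.04 (SE 0.62). For eIF3a, the largest subunit of a translation initiation factor, eIF3a-RA had 6959 and 8912 counts after the chase and at most 0.0109 at the pulse, whereas eIF3a-RD, longer by 119 bases, had 0 and 1942 counts after the chase and 2379 and 5629 at the pulse. The later libraries of eIF3a held both forms: RA had 1828 and 44.2 counts at 6 h and 2 and 2746 at 12 h, and RD had 0 and 7318 at 6 h and 0 and 3089 at 12 h. Its sum had a log2 fold change of 0.15 (SE 0.67).

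In gw, the GW182 protein of microRNA silencing, gw-RE had 11148 and 7340 counts after the chase and at most 0.00948 at the pulse. Its transcript gw-RB had 0 and 115 counts after the chase and 6193 and 995 at the pulse, and gw-RA was seen in replicate 2 alone, with 3599 counts after the chase and 2709 at the pulse. In cact, the Drosophila IkappaB, cact-RB had 3637 and 3208 counts after the chase and 0 at the pulse, with cact-RC and cact-RD present in all 4 libraries. For dtn, dtn-RD held all 2341 and 1153 counts at the pulse and 0 after the chase, when dtn-RB had 4212 and 1234. HUWE1-RE, of a large ubiquitin ligase, had 0 counts in both chase libraries and 3222 and 3373 at the pulse, but the chase libraries held different transcripts, HUWE1-RB with 6199 counts in replicate 1 and HUWE1-RD with 11744 in replicate 2. The later chase libraries often did not continue these exchanges. HUWE1-RE was present again in both libraries numbered 2, with 4329 counts at 6 h and 2527 at 12 h, and absent from both numbered 1. Transcript cact-RB had 0 counts in both 6 h libraries and 1.91 and 473 at 12 h, and gw-RE had 1411 and 0 at 6 h and 0 and 479 at 12 h. In contrast gw-RB and dtn-RD had 0 counts in all 4 libraries of 6 and 12 h, and dtn-RB had 992 and 835 counts at 6 h and 0 and 561 at 12 h. The gene sums of gw, cact, dtn and HUWE1 had log2 fold changes of 0.33 (SE 0.52), 0.50 (SE 0.64), 0.32 (SE 0.73) and 0.49 (SE 0.51). In these genes the transcript counts separated the 3 h chase from the pulse while the gene sums overlapped or differed by less than their intervals.

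**Figure D5:**
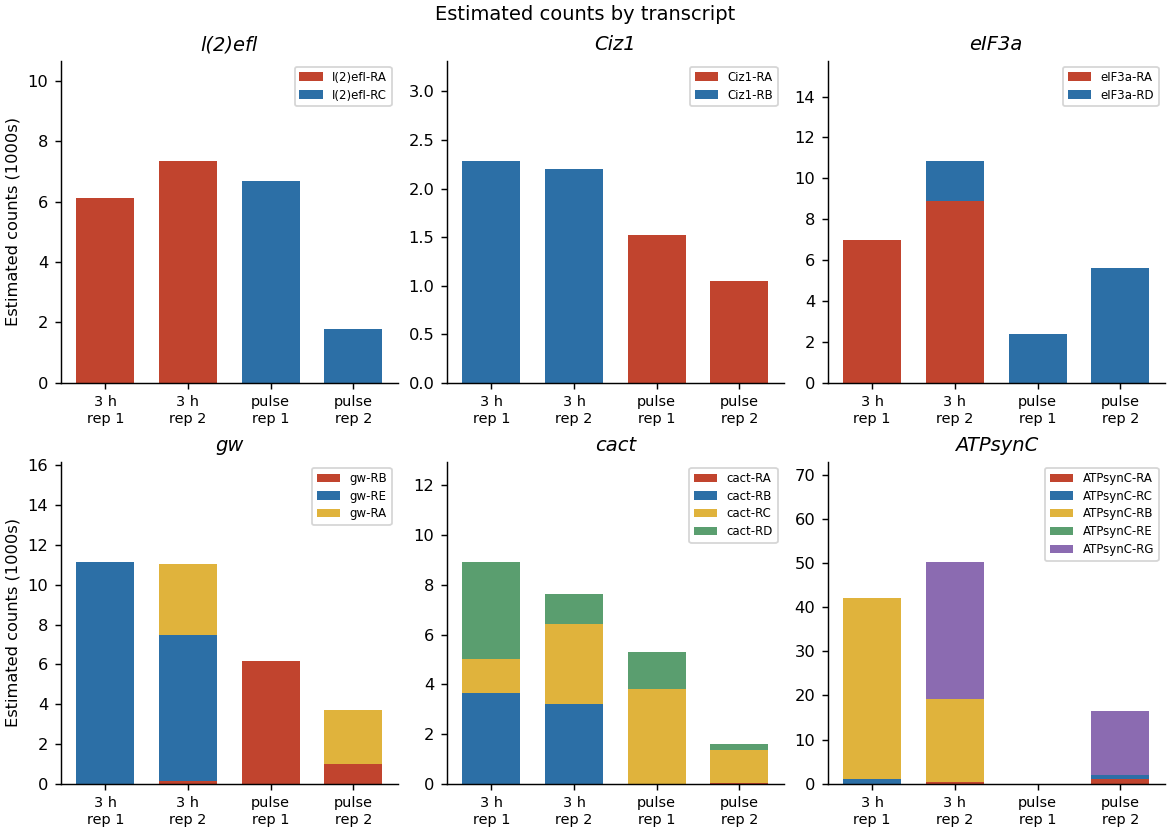
Estimated counts by transcript (vertical axis in units of 1000 counts) in each library for 6 genes, 3 h chase bars to the left of the pulse bars, each colour a transcript of that gene. In l(2)efl and Ciz1 a different transcript takes nearly all estimated counts at each time, although the transcripts share nearly all their bases. In ATPsynC pulse replicate 1 is nearly empty.

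ATPsynC, the c subunit of the ATP synthase rotor, was a gene whose sum turned on 1 library. Its sum was 41990 and 50207 counts after the chase against 13.4 and 16472 counts at the pulse, so pulse replicate 1 was nearly empty. Transcript ATPsynC-RB had 40927 and 18962 counts after the chase against 0.247 and 0 at the pulse, and ATPsynC-RG had 0 and 30928 counts against 0 and 14543. RB was present in all 4 libraries of 6 and 12 h of chase, between 13030 and 43081 counts. The sum had a log2 fold change of 1.41 (SE 2.12, unadjusted p = 0.53) with edgeR. RyR, the calcium release channel of the endoplasmic reticulum, had RyR-RI at 6925 and 10520 counts after the chase against 1.26 and 0 at the pulse, but 0.184 and 0 counts at 6 h and 0.259 and 6519 at 12 h, and a gene sum with a log2 fold change of -0.31 (SE 0.69).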

How the data were processed

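EC-tagged RNA was biotinylated and purified, and libraries were made on the beads with a kit that, per the labels, removes rRNA. The authors trimmed the reads with Trimmomatic, quantified them with kallisto against BDGP6 annotation, and deposited estimated counts per transcript without normalization (versions not given in the sources used here). Of 31049 transcripts, 30818 (99.3%) matched Ensembl release 115 (BDGP6.54), the source of gene names and coordinates. The 231 unmatched transcripts, at most 0.332% of the counts of a library, were left out. Estimated counts were summed over the transcripts of each of 14227 genes, rounded, filtered with filterByExpr by time point, scaled by TMM and tested between the 2 time points with edgeR 4.0.16 (R 4.3.3, glmQLFit and glmQLFTest, two-sided, Benjamini-Hochberg adjusted p under 0.05). The share of transcripts within a gene was tested with diffSpliceDGE. The 6 and 12 h libraries were used as values only. Alternatives covered scaling, filter, test (DESeq2 1.42.0, limma 3.58.1 voom), libraries in the fit, transcript length, the replicate number and leaving out each library.

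Genes named are the 10 of smallest p in each direction, since none passed the threshold. Their groups did not overlap and their mean was at least 50 counts. Also named are 3 m6A targets per direction, and run, CycD and ase. The member with most counts is named for some lists and not for others. All other list members, the genes with narrow intervals and the transcripts were picked after their values were seen. The comparison and the lists were chosen with earlier results of these data known. Floors of 3 counts cover counting error only. The replicate numbers were not taken as pairs, since no source says that they mark a shared feeding or day and there are only 2. No base sequences were used here.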

Additional observations from a re-analysis of the deposited data

How the results depend on the processing

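Among gene sums the number lower and higher at an adjusted p under 0.05 stayed at 0 with edgeR, except for 1 higher gene without the filter (Fbp2), and limma voom gave 1 higher gene (ATPsynC). Leaving out a library gave 0 to 2 lower and 0 to 85 higher genes, the highest without pulse replicate 2, and with chase replicate 2 left out 721 genes were lower at an unadjusted p under 0.05. In these fits the lone library is assumed to vary like the other group. Transcript calls moved more: 24 lower and 36 higher without the filter, 238 and 326 with DESeq2, 1 and 1 with all 8 neuroblast libraries, and, with a library left out, 0 to 52 lower and 0 to 137 higher. The causes were not tested. Changed isoform use was called for 0 genes in each alternative run. With the replicate block 0 genes and 0 transcripts were called, with 21 lower and 60 higher genes at an unadjusted p under 0.05, and 6 genes of changed isoform use in place of 58. Deviations of same-numbered libraries from their group means had a correlation of 0.232 across genes (0.440 at a mean of at least 1000 counts). The samples share only a number. The block also turned the median log2 fold change of the cell cycle list to 0.08, of glial markers to 0.00, of hemocyte markers to 0.28 and of cytosolic ribosomal proteins to -0.02, and moved that of the histones to -2.22 and of ring gland markers to 1.79. Without the filter the median was 1.46 for ring gland markers and 0.65 for neuroblast transcription factors, and that of the insulin and nutrient genes, near 0, took the other sign, as it did with DESeq2 size factors (-0.02) and library totals (-0.01). With these 2 scalings the cytosolic ribosomal proteins were at -0.04 and -0.05 and the S-adenosylmethionine list at -0.03 and -0.02. Of the named genes' alternatives, 358 kept direction and side of the threshold, and CG4716 passed without pulse replicate 2. A restriction to genes with a mean of at least 1000 counts, chosen after seeing the data, also gave 0 calls (1 lower and 13 higher unadjusted). A median coefficient of biological variation of 1.44 for gene sums and 2.18 for transcripts limits what these 4 libraries can show, and a missing call does not show equal levels.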
